A study of Mus musculus with 8 samples.

Results

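Control mouse myotubes were compared after 24 h and after 12 h of exposure to vesicles taken from growth medium, to describe how their transcriptome changed between those times. The comparison uses 4 of the 8 libraries of the study, 2 at each time, and all 10953 of 35275 genes that averaged at least 1 FPKM (fragments per kilobase of gene per mega, M, of fragments) over those 4 libraries. The myotubes, which are multinucleated muscle cells, were formed in horse serum medium from myogenic progenitor cells (MPCs), grown in primary culture from C57BL6/J mice. The 12 h control group and the 24 h control group both received extracellular vesicles (EVs, membrane particles released by cells) that had been prepared from growth medium. The other 4 libraries, 2 at 12 h and 2 at 24 h, came from myotubes of the same kind given EVs of MPCs, and their time change is set beside that of the controls. No library without vesicles and none from before the exposure was analysed here, so a change with time in culture cannot be told apart from a change in the response to the control preparation. Nothing in the labels states whether a group's 2 libraries were made from different cultures, and the p-values therefore describe the spread between libraries, which could be technical.

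Progenitors that become myotubes leave the cell cycle, fuse under the control of Myod1, Myog and the membrane fusogens Mymk and Mymx, and then assemble sarcomeres from actin, myosin heavy and light chains, troponins and Z-disc proteins. Progenitors that do not fuse can keep dividing in the same dish. NF-kB, a transcription factor family held in the cytoplasm by IkB proteins, induces its own inhibitors and inflammatory cytokines when active, and cells entering division successively transcribe S-phase and mitotic genes.

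Depth was estimated from the steps between low FPKM values at 18.7 and 19.8 M fragments for control 12 h replicates 1 and 2 and at 19.7 and 20.2 for control 24 h. Control 12 h replicate 2 stood apart from the other libraries. Its log2 values correlated with those of its partner at 0.947 across genes, against 0.992 to 0.996 for the partners of the other 3 groups, and genes are not independent replicates. In that library, 967 genes with long transcripts of low GC content (at least 4760 bases and at most 45.0% GC) lay a median of 1.02 below the partner on the log2 scale (−1.02), where the other groups' replicates differed by 0.04 to 0.23. Mitochondrially encoded transcripts took 1.56% of its FPKM and 4.38% of its partner's. Each change below was therefore also computed against control 12 h replicate 1 alone, and "held" is used for a change with an adjusted p under 0.05 in the same direction in both fits. All 10 markers of differentiated myotubes averaged at least 1 FPKM, and their summed level was 14800 and 17100 FPKM at 12 h and 10500 and 10900 FPKM at 24 h.

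Over all tested genes, 829 rose between 12 h and 24 h (7.57%) and 1130 fell (10.3%) at an adjusted p under 0.05, from limma with Benjamini-Hochberg adjustment. Against replicate 1 alone, 763 of the rises (6.97% of tested genes) and 948 of the falls (8.66%) held, and 248 of the 1959 calls did not. The 24 h libraries both lay above both 12 h libraries for 27.9% of tested genes and below both for 30.8%, and every called gene was among these. Changes over 2-fold were fewer, with 117 called rises and 201 called falls. Changes are differences of log2(FPKM + 0.5), a scale that understates the change of low genes, and errors are SE from limma. The median change of all tested genes was 0.01 on this scale and −0.0 against replicate 1 alone. The split between directions depended on the libraries and the setting used. Rises made up 42.3% of calls over both 12 h libraries, 52.6% (1336 rises and 1203 falls) without control 12 h replicate 2, 55.2% (2483 and 2016) without control 12 h replicate 1, and 55.5% (1067 and 855) after a correction of each library for GC content and transcript length. The calls fell to 228 rises and 411 falls without control 24 h replicate 1 and to 185 and 341 without control 24 h replicate 2. Without MPC EV 24 h replicate 1 or 2, which enter the fit through the shared spread, 520 and 519 genes rose. With the 4 control libraries fitted alone the calls fell to 159 rises and 329 falls, and rises made up 32.6% of them.

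**Figure D1:**
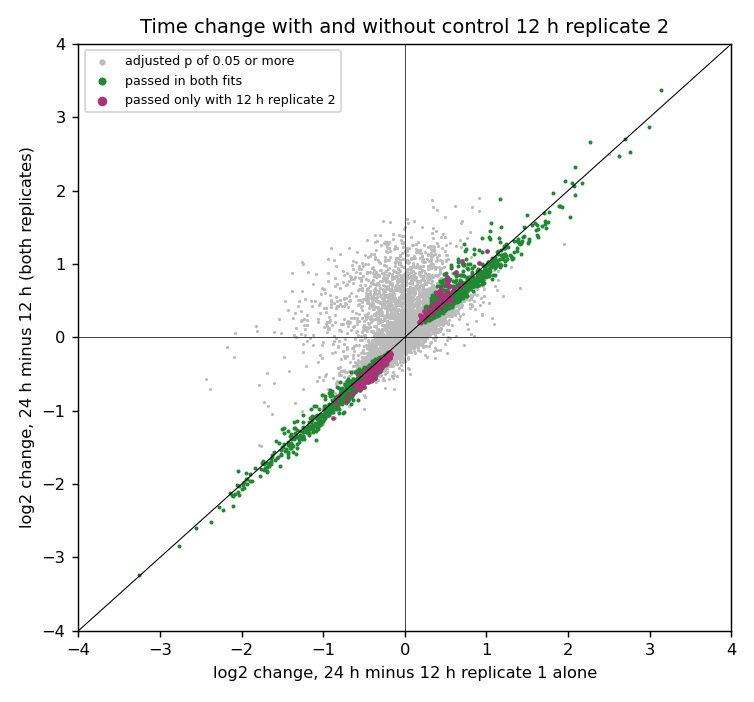
Each point is 1 of the 10953 tested genes, with its log2 change from 12 h to 24 h against control 12 h replicate 1 alone on the x axis and against both 12 h replicates on the y axis (log2 FPKM + 0.5). Green points passed an adjusted p of 0.05 in both fits (1711 genes), purple points passed only with replicate 2 included (248), and many grey points above the diagonal have a rise that depends on replicate 2.

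The 967 long, low-GC genes had a median change of 0.49 over both 12 h libraries, −0.04 against replicate 1 alone and 0.14 after the GC and length correction. Of them, 6.41% were called higher and 1.45% lower. Among 983 short, GC-rich genes (at most 2097 bases and at least 54.5% GC), 4.68% were called higher and 16.7% lower, and 14.5% were lower and held. Of the 829 called rises, 611 were also called as rises after the correction, and of the 1130 called falls, 744 were.

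The largest held rises were spread over genes of different function. Avil, which encodes the actin-binding protein advillin (chromosome 10, 127000709 to 127020994 in GRCm38), stood at 0.405 and 0.581 FPKM in the 12 h libraries and at 6.56 and 6.83 FPKM at 24 h, a change of 2.86 ± 0.14 (adjusted p = 0.00034). Ostn, which encodes the secreted muscle peptide osteocrin (chromosome 16, 27307489 to 27351212), went from 1.80 and 1.77 FPKM to 12.9 and 16.0 FPKM, a change of 2.70 ± 0.12 (adjusted p = 0.000321). Car6, a secreted carbonic anhydrase, went from 2.15 and 3.15 to 17.1 and 17.6 FPKM. In each of the 3 both 24 h libraries lay above both 12 h libraries, which was a condition for choosing them. The adhesion and guidance genes Tenm4 (1.51 and 2.01 to 11.4 and 12.6 FPKM) and Sema5a (1.64 and 1.19 to 7.22 and 8.42 FPKM) rose by 2.47 ± 0.14 and 2.13 ± 0.15. Dlg2, which encodes a synaptic scaffold protein, went from 4.21 and 3.27 to 15.1 and 17.0 FPKM. Fam171b, a membrane protein gene, went from 2.65 and 1.34 to 14.2 and 15.2 FPKM. The most abundant of the 12 was Cdsn, which encodes corneodesmosin, a cell adhesion protein known from skin. Cdsn stood at 60.7 and 74.6 FPKM at 12 h and at 233.8 and 229.8 FPKM at 24 h (1.78 ± 0.11, adjusted p = 0.000507). Nrip2, Itpk1, Mamdc2 and the mitotic cyclin gene Ccnb2 completed the 12, with changes of 1.72 to 2.11. In Nrip2, 18.8% of exon bases overlap other genes, in Ostn 12.9%, and the libraries were not strand-specific, so fragments from overlapping genes cannot be told apart there.

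The largest fall was that of Gal, which encodes the neuropeptide galanin (chromosome 19, 3409915 to 3414544). Gal stood at 48.4 and 47.2 FPKM at 12 h and at 4.42 and 4.80 FPKM at 24 h, a change of −3.24 ± 0.16 (adjusted p = 0.00034). In myotubes given MPC EVs the same gene was at 15.4 and 17.8 FPKM at 12 h and 14.5 and 10.5 FPKM at 24 h. Several of the other large falls were in muscle genes. Popdc2, a membrane protein gene of striated muscle, went from 22.6 and 24.0 to 3.06 and 3.81 FPKM (−2.60 ± 0.12). Itgb1bp2, which encodes the muscle integrin-binding protein melusin, went from 38.6 and 40.5 to 7.18 and 7.99 FPKM. In both genes the 24 h libraries lay below the 12 h libraries with no overlap, which was a condition for choosing them.

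Tspan9, a tetraspanin gene, went from 75.1 and 80.6 to 16.9 and 17.1 FPKM, and Shisa2, a gene of the endoplasmic reticulum membrane, from 30.9 and 32.3 to 6.78 and 6.67 FPKM. These had the smallest errors among the large falls, at −2.16 ± 0.07 and −2.15 ± 0.07 (adjusted p = 0.000166 for each). Bmp2, a growth factor of the TGF-beta superfamily, went from 3.96 and 3.85 to 0.542 and 0.488 FPKM. Frmpd1, Colq, Itgb4, Nfkbie and Myl3 were also among the 12. The 24 largest changes were picked for a call with and without control 12 h replicate 2, which favours calls in the alternatives. Of the 24, 23 kept their call under every alternative that tested them. The exception was Myl3, a slow myosin light chain gene at 3.40 and 4.11 FPKM and then 0.108 and 0.998 FPKM, which passed in 14 of 19 alternatives and lost its call without control 24 h replicate 1 and without either MPC EV 12 h replicate.

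**Figure D2:**
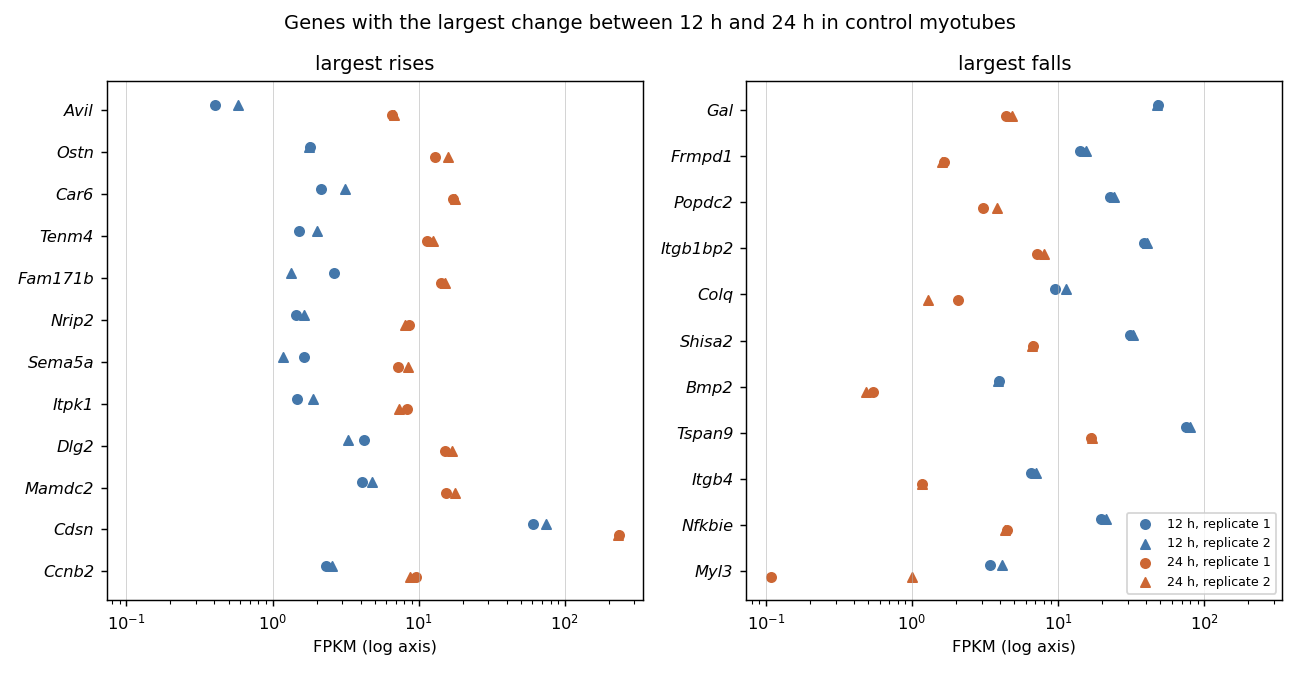
FPKM (log axis) of the 12 genes with the largest rise (left) and of 11 of the 12 with the largest fall (right) in each of the 4 control libraries, circles for replicate 1 and triangles for replicate 2, blue for 12 h and orange for 24 h. The 23 genes drawn were chosen with 12 h and 24 h libraries that do not overlap. Myl3 has the widest gap between its 24 h libraries (0.108 and 0.998 FPKM).

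Transcripts of the contractile apparatus were mostly lower at 24 h. Of 35 tested sarcomere genes, 20 fell (19 held), 1 rose and 14 did not pass, and the median change was −0.58 against 0.01 over all tested genes. This and the later list counts are read beside the shares over all tested genes, of which 7.57% rose and 10.3% fell. Actn2, the alpha-actinin that cross-links actin at the Z disc (chromosome 13, 12269426 to 12340760), stood at 36.3 and 44.8 FPKM at 12 h and at 11.4 and 10.5 FPKM at 24 h (−1.83 ± 0.12, adjusted p = 0.000511). The embryonic myosin gene Myh3 went from 409.2 and 463.1 to 161.8 and 182.6 FPKM (−1.34 ± 0.11, adjusted p = 0.000895). Myh7, the slow myosin heavy chain, went from 24.0 and 29.4 to 9.74 and 10.0 FPKM (−1.38 ± 0.12). These 3 genes were called under all 20 alternatives, which their choice by a small adjusted p favours. Myosin heavy chain genes are similar in sequence, so fragments may have been divided among them in a way that is not given in the sources used here. Actc1, the cardiac actin that embryonic muscle also expresses, went from 1576 and 1923 to 741.3 and 820.6 FPKM (−1.16 ± 0.12, adjusted p = 0.00223). Mybph, myosin-binding protein H, fell by 1.05 on the log2 scale, and 49.9% of its exon bases overlap Adora1 on the opposite strand, which averaged 0.596 FPKM.

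The adult skeletal actin Acta1 was the most abundant of the myotube markers. It stood at 6843 and 7898 FPKM at 12 h and 5127 and 5445 FPKM at 24 h, and its fall of 0.48 on the log2 scale (adjusted p = 0.0317) did not hold against replicate 1 alone (adjusted p = 0.0556). With quantile normalization the change of Acta1 was 0.0. That method gives a gene that keeps its rank the same value in each library, so the 0.0 cannot show whether so abundant a transcript fell. Des, the muscle intermediate filament desmin, went from 1135 and 1268 to 863.5 and 886.3 FPKM (adjusted p = 0.0134), and lost its call after the GC and length correction (adjusted p = 0.0668) and without either control 24 h replicate. Tnnt3, the fast troponin T, was at 1128 and 1293 and then 965.2 and 962.7 FPKM and did not pass (adjusted p = 0.0902). Ttn, the giant elastic protein of the sarcomere, was at 11.8 FPKM in control 12 h replicate 1 and 3.66 FPKM in replicate 2, against 14.2 and 15.8 FPKM at 24 h. Its change was 1.11 over both 12 h libraries and 0.33 against replicate 1 alone, and neither passed (adjusted p = 0.156 and 0.232). Atp2a1, the fast calcium pump of the sarcoplasmic reticulum, did not pass either, at 90.8 and 112.1 and then 129.3 and 128.7 FPKM (adjusted p = 0.0865), and passed as higher against replicate 1 alone (adjusted p = 0.0072).

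The count of sarcomere genes that fell ranged from 12 without control 24 h replicate 1 to 27 without control 12 h replicate 1, was 21 after the GC and length correction and was 11 with the control libraries alone. Fewer myotubes in the dish and less of these transcripts in each myotube cannot be told apart in RNA from whole cultures. In the MPC EV libraries 16 of the 35 fell and none rose, with a median of −0.46, where 5.27% of all tested genes fell.

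Regulators of the muscle programme and of fusion fell with the contractile genes. Of 27 tested, 13 fell (12 held), 2 rose and 12 did not pass, with a median of −0.30. The 2 rises are near the 7.57% of all tested genes that rose, while 10.3% of all tested genes fell. Mymx, the small fusogen also called myomerger, went from 194.8 and 197.8 to 78.0 and 73.4 FPKM (−1.37 ± 0.08, adjusted p = 0.000451). Its partner Mymk stood at 694.3 and 795.9 and then 546.1 and 545.7 FPKM (−0.45 ± 0.08, adjusted p = 0.0166), a call lost without either control 24 h replicate. Myog, the transcription factor of terminal differentiation, went from 2872 and 3290 to 1913 and 1886 FPKM (−0.69 ± 0.09, adjusted p = 0.00382). Cav3, the muscle caveolin, went from 51.9 and 51.1 to 21.7 and 17.9 FPKM. Myf5, the early myogenic factor of progenitors, moved the other way, from 7.48 and 5.39 to 15.1 and 14.7 FPKM (1.16 ± 0.17, adjusted p = 0.00632), and this call was lost without either control 24 h replicate. Ckm, muscle creatine kinase, went from 67.8 and 85.6 to 35.6 and 41.8 FPKM (adjusted p = 0.00856), lost without control 24 h replicate 1. The counts were 9 falls and no rise without either control 24 h replicate, 15 falls and 5 rises without control 12 h replicate 1, and 7 falls and no rise with the control libraries alone.

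In the list for excitation-contraction coupling and the neuromuscular junction, which has 23 tested genes, 8 fell and 2 rose, all held, with a median of −0.23. Such a number of rises is near the 7.57% of all tested genes that rose, and 10.3% of those genes fell. Ache, the acetylcholinesterase of the synapse, went from 2.81 and 2.68 to 0.509 and 0.282 FPKM (−1.87 ± 0.18, adjusted p = 0.00165). Colq, the collagen tail that anchors it, went from 9.48 and 11.3 to 2.05 and 1.28 FPKM (−2.35 ± 0.21, adjusted p = 0.00132). Both were low at each time in the MPC EV libraries, where Colq was at 0.886 and 0.666 FPKM at 12 h and 0.128 and 0.174 FPKM at 24 h. Cacnb1, the beta subunit of the muscle calcium channel, rose from 85.0 and 101.5 to 148.7 and 152.0 FPKM (0.69 ± 0.09, adjusted p = 0.00401). The 8 falls became 3 without either control 24 h replicate, 13 without control 12 h replicate 1 and 5 after the GC and length correction.

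**Figure D3:**
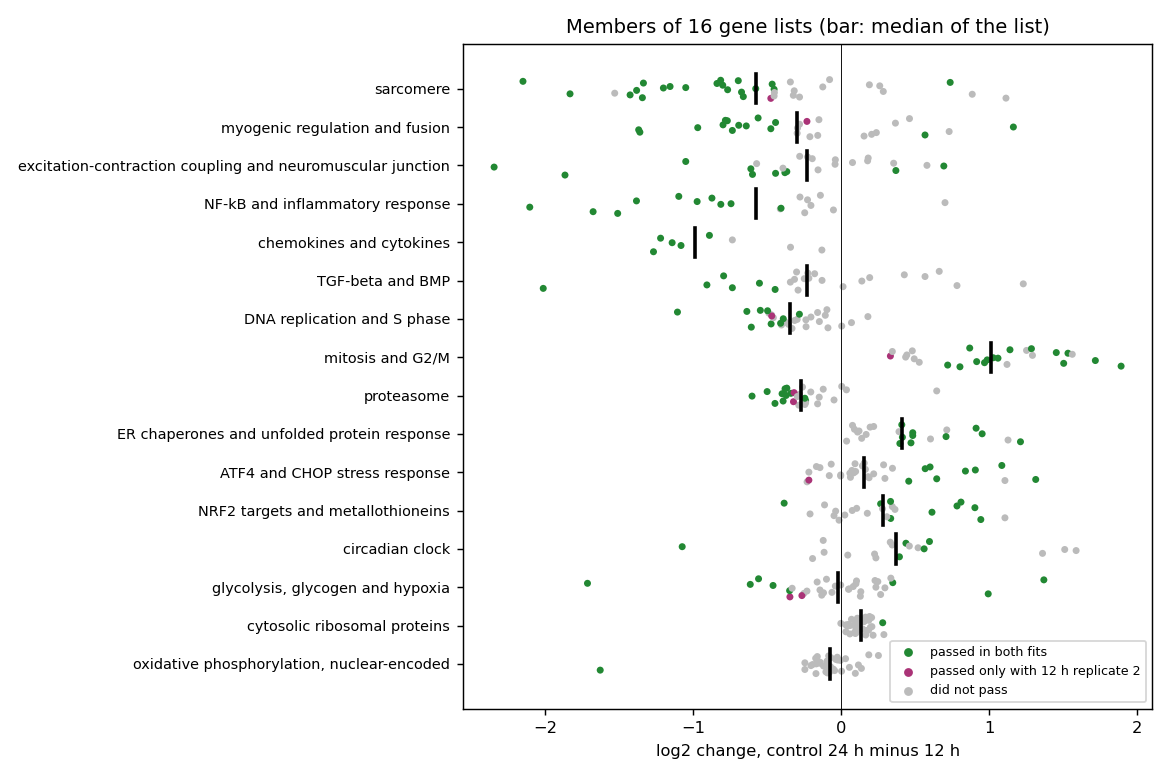
Log2 change from 12 h to 24 h in control myotubes (x axis, log2 FPKM + 0.5) for the tested members of 16 gene lists, 1 point per gene, green where the change passed in both fits, purple where it passed only with control 12 h replicate 2 and grey where it did not pass; the black bar is the median of the list. Mitosis genes lie to the right of 0 (median 1.01), while sarcomere (−0.58), NF-kB (−0.58) and chemokine (−0.99) medians lie to the left.

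Genes of mitosis rose. Of 26 tested, 16 rose (15 held), none fell and 10 did not pass, with a median of 1.01 against 0.01 over all tested genes. Rises made up 7.57% of all tested genes and falls 10.3%. Ccnb1, a cyclin that activates Cdk1 at the entry into mitosis, went from 4.38 and 5.04 to 14.6 and 14.5 FPKM (1.53 ± 0.09, adjusted p = 0.00045). Ccnb2, its paralogue, went from 2.32 and 2.55 to 9.55 and 8.74 FPKM (1.72 ± 0.12, adjusted p = 0.000622). Cenpa, the centromeric histone, went from 3.79 and 3.57 to 11.3 and 11.3 FPKM, and Tpx2, which activates Aurora A on the spindle, from 5.32 in both 12 h libraries to 10.8 and 11.0 FPKM. All 4 were called under all 20 alternatives, which their choice by a small adjusted p favours. The number of mitosis genes that rose was 10 without either control 24 h replicate or with the control libraries alone, and 22 without control 12 h replicate 1. In the MPC EV libraries 18 of the 26 rose, with a median of 0.97, where 12.9% of all tested genes rose.

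Many mitotic promoters carry the cell cycle homology region (CHR, TTTGAA on either strand), through which the MuvB complex is known to act late in the cycle. RefSeq promoters (GRCm38.p6, searched over the 250 bases before the start) were matched by symbol for 13 of the 16 called mitosis genes, and 5 of these held the CHR letters, as did 4 of 8 matched mitosis genes that did not pass. The letters were present in 16.0% of all promoters in that table, in 10.2% of the promoters of tested genes and in 35.7% of those of the called mitosis genes. The 80 bases before the start are shown for 4 called genes with a match there, which were picked for the match after the values were known. Capitals mark the CHR (TTCAAA where it lies on the other strand), and each sequence reads 5′ to 3′ on the gene's strand.
Cdc20 (chr4:118437344-118437423, minus strand): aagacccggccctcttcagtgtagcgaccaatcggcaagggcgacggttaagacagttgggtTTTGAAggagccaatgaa
Cdk1 (chr10:69352913-69352992, minus strand): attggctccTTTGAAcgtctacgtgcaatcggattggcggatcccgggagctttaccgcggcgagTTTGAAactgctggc
Prc1 (chr7:80294396-80294475, plus strand): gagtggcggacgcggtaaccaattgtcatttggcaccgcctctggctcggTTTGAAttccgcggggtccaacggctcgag
Ube2c (chr2:164769849-164769928, plus strand): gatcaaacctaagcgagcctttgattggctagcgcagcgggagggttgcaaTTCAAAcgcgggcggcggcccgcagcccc
Cdc20, the activator of the anaphase-promoting complex, went from 6.73 and 9.36 to 19.2 and 20.9 FPKM (1.28 ± 0.20, adjusted p = 0.00833). Ube2c, the ubiquitin-conjugating enzyme of that complex, went from 5.51 and 5.61 to 12.1 and 12.1 FPKM (1.06 ± 0.12). Prc1, a microtubule bundler of the spindle midzone, went from 4.58 and 4.71 to 8.55 and 9.24 FPKM (0.87 ± 0.10). Cdk1, the kinase that drives mitosis, moved less, from 8.03 and 7.66 to 10.2 and 9.84 FPKM (0.33 ± 0.09, adjusted p = 0.0441), and did not hold against replicate 1 alone (adjusted p = 0.0786). A match of these letters is a description of the sequence and not a measured binding site.

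Genes of DNA replication moved in the opposite direction. Of 30 tested, 10 fell (9 held), none rose and 20 did not pass, with a median of −0.35. Falls made up 10.3% of all tested genes and rises 7.57%. Cdc6, which loads the replicative helicase, went from 1.76 and 2.17 to 0.571 and 0.712 FPKM (−1.11 ± 0.15, adjusted p = 0.00524). The helicase subunit gene Mcm5 went from 8.07 and 8.96 to 5.66 and 4.92 FPKM (−0.64 ± 0.10, adjusted p = 0.00877), and Mcm4 from 13.8 and 14.1 to 10.1 and 10.6 FPKM (−0.41 ± 0.07, adjusted p = 0.012). E2f1, a transcription factor of S-phase genes, went from 9.57 and 10.0 to 6.43 and 6.67 FPKM (−0.55 ± 0.08, adjusted p = 0.00819) and lost its call after the GC and length correction (adjusted p = 0.184). The replication counts rested on few libraries, since 2 genes fell without control 24 h replicate 1, 1 without control 24 h replicate 2, 1 with the control libraries alone and 13 without control 12 h replicate 1. In the MPC EV libraries 11 of the 30 rose and none fell, with a median of 0.29, where 12.9% of all tested genes rose and 5.27% fell. Mcm6, another helicase subunit, shows both directions, at 14.6 and 14.0 and then 10.7 and 10.9 FPKM in control and at 8.63 and 9.15 and then 12.5 and 12.4 FPKM with MPC EVs.

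Targets of NF-kB fell in control myotubes. Of 18 tested genes of the NF-kB and inflammatory list, 10 fell and all 10 held, none rose and 8 did not pass, with a median of −0.58. Among all tested genes 10.3% fell and 7.57% rose. The falls included the inhibitors that NF-kB itself induces. Nfkbia, which encodes IkB-alpha (chromosome 12, 55489410 to 55492647), went from 32.2 and 34.1 to 10.6 and 9.46 FPKM (−1.68 ± 0.12, adjusted p = 0.000628). Nfkbie, which encodes IkB-epsilon, went from 19.7 and 21.4 to 4.44 and 4.32 FPKM (−2.11 ± 0.12, adjusted p = 0.00045). Tnfaip3, the ubiquitin-editing enzyme A20 that limits the pathway, went from 10.4 and 10.3 to 3.84 and 3.49 FPKM (−1.39 ± 0.10, adjusted p = 0.000767). Nfkb2, the p100 subunit gene of the non-canonical arm, went from 71.6 and 81.0 to 43.5 and 42.6 FPKM (−0.82 ± 0.07, adjusted p = 0.00136), and 18.1% of its exon bases overlap other genes. For each of these 4 genes both 24 h libraries lay below both 12 h libraries, as for every called fall. The kB letters GGANTTTCC, searched on both strands, occurred for 1.25% of all genes with RefSeq promoters and for 1.28% of tested genes. They occurred in 3 of 8 matched genes of the list that fell and in 1 of 6 that did not pass. The 80 bases before the start are shown for the inhibitors Nfkbia and Tnfaip3, both chosen for a match in that window, with the kB letters in capitals.
Nfkbia (chr12:55492648-55492727, minus strand): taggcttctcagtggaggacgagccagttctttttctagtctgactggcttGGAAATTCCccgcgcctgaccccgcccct
Tnfaip3 (chr10:19015411-19015490, minus strand): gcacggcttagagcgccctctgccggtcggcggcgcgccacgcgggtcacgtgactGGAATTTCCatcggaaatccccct
The number of NF-kB genes that fell was 7 without control 24 h replicate 2, 13 without control 12 h replicate 1 and 5 with the control libraries alone. In the MPC EV libraries 2 of the 18 fell and 1 rose, with a median of 0.09, where 5.27% of all tested genes fell and 12.9% rose. So few calls do not set the list apart from those shares. There Nfkbia was already at 7.58 and 9.44 FPKM at 12 h and stood at 6.10 and 6.49 FPKM at 24 h.

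Among 8 tested chemokine and cytokine genes, 5 fell and all held, none rose, and the median was −0.99. Il34, a ligand of the macrophage colony-stimulating factor receptor, went from 7.58 and 9.48 to 3.08 and 3.64 FPKM (−1.22 ± 0.13, adjusted p = 0.00249). Lif, an interleukin-6 family cytokine, went from 7.36 and 8.68 to 3.77 and 3.26 FPKM (−1.08 ± 0.16, adjusted p = 0.00759). The membrane-bound chemokine gene Cx3cl1 went from 11.5 and 12.8 to 6.96 and 5.75 FPKM (adjusted p = 0.00799). Ccl2, the monocyte chemokine MCP-1, went from 9.35 and 7.40 to 4.12 and 2.40 FPKM (−1.27 ± 0.23, adjusted p = 0.0149), with MPC EV values of 1.84 and 2.19 at 12 h and 4.53 and 4.57 FPKM at 24 h. Lif, Cx3cl1 and Ccl2 lost their call without control 24 h replicate 2, and 1 of the 8 genes fell without it. None of 6 tested interferon response genes passed with limma in either direction. None of 14 leukocyte markers averaged 1 FPKM over the control libraries, the highest single value being 0.942 FPKM for Cd68, and their summed level was 2.16 and 3.83 FPKM at 12 h and 3.59 and 2.70 FPKM at 24 h. The part of other cells in the cytokine change was not tested.

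Other signalling pathways were read against the shares over all tested genes, of which 7.57% rose and 10.3% fell. Of 23 genes of the TGF-beta and BMP list, 6 fell, all held, and none rose, with a median of −0.23. Fst, which encodes follistatin, a secreted binder of activins and myostatin, went from 32.8 and 30.7 to 8.10 and 6.91 FPKM (−2.02 ± 0.10, adjusted p = 0.000343). Smad3, which carries the TGF-beta signal to the nucleus, went from 23.5 and 25.7 to 13.3 and 12.4 FPKM (−0.91 ± 0.09, adjusted p = 0.00165). The ligand genes Tgfb2 and Tgfb3 fell by 0.80 and 0.55 on the log2 scale. The 6 falls became 3 without control 24 h replicate 1, 4 without control 24 h replicate 2 and 9 without control 12 h replicate 1, where 5 genes also rose.

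Of 19 Wnt and Notch genes, 6 fell and 2 rose. Wnt9a went from 17.9 and 20.2 to 7.46 and 7.65 FPKM (−1.28 ± 0.10, adjusted p = 0.000862), and the Notch target Hes1 from 17.7 and 18.0 to 9.99 and 11.1 FPKM (−0.74 ± 0.08, adjusted p = 0.00276). The count of falls was 3 without control 24 h replicate 1 and 2 without control 24 h replicate 2. Of 30 immediate early and ERK feedback genes, 7 fell and 2 rose. Junb, an AP-1 subunit gene, went from 86.0 and 83.7 to 31.4 and 29.9 FPKM (−1.46 ± 0.14, adjusted p = 0.00152), and Spry1, a feedback inhibitor of receptor tyrosine kinase signals, from 5.95 and 5.47 to 1.79 and 2.11 FPKM (−1.34 ± 0.12, adjusted p = 0.00138). In Spry1, 24.4% of exon bases overlap another gene. Atf3 rose from 41.1 and 57.9 to 99.9 and 108.3 FPKM (1.08 ± 0.15, adjusted p = 0.00592), a call lost without control 24 h replicate 2. The 7 falls became 4 after the GC and length correction, 4 without control 24 h replicate 1 and 2 without control 24 h replicate 2.

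Factors that muscle secretes moved in both directions, with 8 of 24 falling and 3 rising (10.3% and 7.57% over all tested genes). Besides Ostn, Gal and Fst, Fndc5, the precursor of irisin, went from 31.0 and 34.7 to 11.4 and 11.8 FPKM (−1.46 ± 0.08, adjusted p = 0.00045). The falls numbered 4 without control 24 h replicate 2 and 9 without control 12 h replicate 1.

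Chaperones of the endoplasmic reticulum (ER) rose. Of 23 tested genes of the ER chaperone and unfolded protein response list, 10 rose, all held, none fell and 13 did not pass, with a median of 0.41. Among all tested genes 7.57% rose and 10.3% fell. Hspa5, the abundant ER chaperone BiP, went from 803.3 and 873.3 to 1521 and 1629 FPKM (0.91 ± 0.08, adjusted p = 0.00104). Its partner Sdf2l1 went from 41.7 and 51.9 to 86.7 and 94.3 FPKM (0.95 ± 0.11, adjusted p = 0.00294). Sel1l, the adaptor of ER-associated degradation, went from 41.5 and 48.7 to 70.6 and 77.0 FPKM (0.71 ± 0.10, adjusted p = 0.00679), a call lost without control 24 h replicate 2. Atf6, an ER stress sensor, rose by 0.40 ± 0.06 (adjusted p = 0.00839) and lost its call after the GC and length correction (adjusted p = 0.385). The 10 rises became 5 and 2 without control 24 h replicates 1 and 2, 6 to 8 without 1 of the MPC EV libraries, and 18 without control 12 h replicate 2.

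In the ATF4 and CHOP list, 8 of 33 genes rose, all held, and Atf5 fell without holding, with a median of 0.15. Rises made up 7.57% of all tested genes and falls 10.3%. Ppp1r15a, which encodes GADD34, the phosphatase subunit that reverses the block on translation, went from 119.9 and 161.0 to 347.0 and 345.0 FPKM (1.31 ± 0.14, adjusted p = 0.00223). Ddit3, which encodes CHOP, went from 140.4 and 170.1 to 275.7 and 277.6 FPKM (0.84 ± 0.10, adjusted p = 0.0033). Aldh1l2, a mitochondrial folate enzyme, went from 37.4 and 39.9 to 71.1 and 74.5 FPKM (0.91 ± 0.06, adjusted p = 0.000516). The amino acid synthesis gene Asns, a textbook ATF4 target, did not pass (change 0.06), nor did Trib3 (0.10) or Atf4 itself (0.08), all 3 chosen after their values were seen. The 8 rises became 15 after the GC and length correction, 18 without control 12 h replicate 2, and 5 and 4 without control 24 h replicates 1 and 2.

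Of 23 NRF2 targets and metallothioneins, 8 rose and 1 fell (7.57% and 10.3% over all tested genes). Mt2 went from 120.3 and 127.4 to 246.6 and 230.4 FPKM (0.94 ± 0.07, adjusted p = 0.000628) and Mt1 from 181.6 and 172.2 to 285.8 and 256.2 FPKM (0.61 ± 0.07, adjusted p = 0.00287). These metal-binding proteins are encoded by short, similar genes, and 73.5% of the exon bases of Mt2 overlap another gene. The glutathione transferase gene Gsta4 went from 5.69 and 6.42 to 10.5 and 11.4 FPKM (adjusted p = 0.00271), and Srxn1, sulfiredoxin, from 12.0 and 14.9 to 23.6 and 23.1 FPKM (adjusted p = 0.00555), the latter lost without either control 24 h replicate. The 8 rises became 3 and 4 without control 24 h replicates 1 and 2, 5 or 6 without 1 of the MPC EV libraries, and 12 without control 12 h replicate 2.

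Of 20 p53 targets, 5 rose and 1 fell, and none passed without control 24 h replicate 1 or without control 24 h replicate 2. Cdkn1a, the cell cycle inhibitor p21, stood at 1292 and 1475 and then 1118 and 1076 FPKM, and its fall (adjusted p = 0.0368) did not hold (adjusted p = 0.0504). Bax, a pro-apoptotic protein gene, went from 196.3 and 203.5 to 256.5 and 251.4 FPKM (0.34 ± 0.07, adjusted p = 0.0189). Of 19 heat shock and muscle chaperone genes 1 rose and 2 fell, near the shares over all tested genes (7.57% and 10.3%). None of the 19 passed with the control libraries alone.

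Degradation genes did not move as a block. Of 28 proteasome subunit genes, 13 fell (11 held), none rose and 15 did not pass, with a median of −0.27. Psma5, a subunit of the catalytic core, went from 156.8 and 179.8 to 111.4 and 109.2 FPKM (−0.60 ± 0.08, adjusted p = 0.0044), and Psma6 from 225.5 and 231.9 to 173.4 and 161.5 FPKM (−0.45 ± 0.07, adjusted p = 0.00733). Psmd12 and Psmd14, of the regulatory particle, fell by 0.40 and 0.39 on the log2 scale. The number of falls was 2 without control 24 h replicate 1, 1 without control 24 h replicate 2, 22 without control 12 h replicate 1 and 0 with the control libraries alone. In the MPC EV libraries 4 of the 28 fell, where 5.27% of all tested genes fell.

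Of 32 atrophy, FOXO, autophagy and lysosome genes, 7 rose and 2 fell, all held. Trim63, which encodes MuRF1, a muscle ubiquitin ligase that targets myosin, went from 80.6 and 94.2 to 34.4 and 32.7 FPKM (−1.36 ± 0.09, adjusted p = 0.000622). Ctsl, a lysosomal protease gene, went from 184.1 and 194.2 to 383.6 and 380.6 FPKM (1.01 ± 0.05, adjusted p = 0.000374), with 26.8% of its exon bases shared with other genes. The rises numbered 4 and 3 without control 24 h replicates 1 and 2, and 12 without control 12 h replicate 1 and 11 without control 12 h replicate 2. Of 37 cytosolic ribosomal protein genes, only Rpl4 passed, from 948.0 and 1064 to 1224 and 1213 FPKM (0.28 ± 0.07, adjusted p = 0.048). That list depended on the library in question: 25 of its genes rose after the GC and length correction, 12 without control 12 h replicate 2, 10 with quantile normalization and none when any library other than control 12 h replicate 2 was left out.

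Energy metabolism showed single genes more than whole pathways. Of 34 glycolysis, glycogen and hypoxia genes, 7 fell (5 held) and 3 rose, with a median of −0.02. Egln3, an oxygen-sensing prolyl hydroxylase, went from 58.7 and 62.9 to 20.5 and 16.1 FPKM (−1.72 ± 0.13, adjusted p = 0.000767). Ldha, the muscle lactate dehydrogenase, went from 508.9 and 534.6 to 339.4 and 341.1 FPKM (−0.62 ± 0.05, adjusted p = 0.00122). Slc2a1, the glucose transporter GLUT1, rose from 19.7 and 23.7 to 41.0 and 46.1 FPKM (0.99 ± 0.11, adjusted p = 0.00251). Without control 12 h replicate 2 the split was 8 rises and 5 falls, and without either control 24 h replicate 2 genes fell. Of 35 nuclear-encoded genes of oxidative phosphorylation, only Cox7a1, a muscle form of a cytochrome oxidase subunit, passed, from 8.80 and 11.8 to 4.18 and 2.04 FPKM (adjusted p = 0.0229), and it lost the call without control 24 h replicate 2 and without either MPC EV 12 h replicate. Without control 12 h replicate 1, 8 of these genes fell.

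None of 12 mitochondrially encoded mRNAs passed with limma. Their summed level was 19760 and 7293 FPKM in the 12 h libraries and 12520 and 13220 FPKM at 24 h, and their median change was −0.05, −0.68 without control 12 h replicate 2 (6 fell) and 0.43 without control 12 h replicate 1 (4 rose). Of 25 cholesterol synthesis genes, 4 fell (3 held) and none rose, where 10.3% of all tested genes fell and 7.57% rose. So few genes do not set the list apart from those shares. Dhcr7, which catalyses the last step, went from 11.0 and 13.0 to 6.80 and 7.51 FPKM (−0.71 ± 0.10, adjusted p = 0.00677). None of the 25 fell without control 24 h replicate 1, 1 fell without control 24 h replicate 2, and 14 fell without control 12 h replicate 1. Of 27 fatty acid genes, 3 rose and 3 fell, near the shares over all tested genes (7.57% and 10.3%). They include Lpl, lipoprotein lipase (0.986 and 0.881 to 2.15 and 2.61 FPKM), and Angptl4, its inhibitor (9.53 and 9.88 to 6.10 and 5.19 FPKM), both lost without control 24 h replicate 2. Without that library none of the 27 passed, and 1 rose and 1 fell without control 24 h replicate 1.

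The circadian clock list had 4 rises and 1 fall among 18 tested genes, all held, and a median of 0.37. Among all tested genes 7.57% rose and 10.3% fell. Bhlhe40, a repressor that competes with the CLOCK:BMAL1 activator, went from 11.0 and 10.1 to 4.74 and 4.73 FPKM (−1.08 ± 0.14, adjusted p = 0.00416). Tef, a transcription factor of the D-box branch, rose from 16.8 and 19 to 27.6 and 26.9 FPKM (0.60 ± 0.08, adjusted p = 0.00423), and Usp2, a clock-controlled deubiquitinase, from 9.29 and 10.7 to 15.1 and 14.8 FPKM (adjusted p = 0.00844). Cry1, a core repressor, rose from 7.37 and 7.67 to 9.95 and 10.1 FPKM (0.39 ± 0.07, adjusted p = 0.0131). Nr1d1, which encodes REV-ERB-alpha, rose from 4.16 and 5.13 to 6.62 and 6.24 FPKM (adjusted p = 0.0432), in the fewest alternatives of the 5 (8 of 20). Usp2, Cry1 and Nr1d1 lost their call without either control 24 h replicate. The core activators did not pass: Arntl, which encodes BMAL1, was at 6.51 and 6.64 and then 5.05 and 6.38 FPKM, and Clock was at 10.3 FPKM in control 12 h replicate 1 and 0.829 FPKM in replicate 2, against 9.35 and 11.3 FPKM at 24 h. Clock's change was 1.51 over both 12 h libraries and 0.0 against replicate 1 alone. Nr1d2 showed the same pattern at 7.58 and 1.87 and then 12.6 and 12.6 FPKM, and passed against replicate 1 alone (0.70, adjusted p = 0.0133) but not over both (adjusted p = 0.0836).

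Per1, Per2, Cry2, Dbp and Ciart, all genes of the negative or D-box arms, had positive changes of 0.23 to 0.52 that did not pass (adjusted p = 0.0515 to 0.284), and 18.0% of the exon bases of Dbp overlap Sphk2. Rora stood at 1.16 and 0.232 and then 2.29 and 2.36 FPKM (adjusted p = 0.0561). Bhlhe41, Nfil3, Csnk1d and Csnk1e had changes of −0.12 to 0.22 that did not pass either. No clock gene was called as a rise with the 4 control libraries alone, where 1 was called as a fall. The number of clock genes that rose was 10 after the GC and length correction, 8 without control 12 h replicate 2, 6 without control 12 h replicate 1 and 1 without either control 24 h replicate.

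Growth factor and matrix genes completed the picture. Of 22 genes of the IGF system and imprinted loci, 5 rose and 1 fell, all held. Igfbp5, an IGF-binding protein, went from 10.1 and 12.9 to 32.4 and 34.8 FPKM (1.51 ± 0.16, adjusted p = 0.00212), Mest, an imprinted gene, from 2.47 and 2.49 to 5.96 and 6.92 FPKM, and Insr, the insulin receptor, from 6.35 and 6.47 to 11.4 and 12.1 FPKM. In Mest, 23.1% of exon bases overlap Copg2. Cdkn1c, the imprinted cell cycle inhibitor p57, fell from 183.4 and 207.9 to 43.9 and 49.4 FPKM (−2.06 ± 0.13, adjusted p = 0.000507), with 30.7% of exon bases shared with another gene. The 5 rises became 3 without either control 24 h replicate, 3 without any 1 MPC EV library and 8 without control 12 h replicate 2. Of 32 matrix glycoprotein and protease genes, 6 fell and 5 rose. Timp1, an inhibitor of matrix metalloproteinases, went from 336.7 and 360.9 to 142.9 and 129.9 FPKM (−1.35 ± 0.07, adjusted p = 0.000394), and Islr from 3.65 and 4.84 to 13.0 and 14.0 FPKM (1.57 ± 0.15, adjusted p = 0.00152). Without either control 24 h replicate, 1 matrix gene rose and 2 fell. Of 15 collagen genes 2 rose and 2 fell, where 7.57% of all tested genes rose and 10.3% fell. So few genes do not set the collagens apart from those shares, and none passed with the control libraries alone.

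Of 30 polyamine, purine and nucleolar growth genes, 7 fell (5 held) and 1 rose, where 10.3% of all tested genes fell and 7.57% rose. Odc1, the first enzyme of polyamine synthesis, went from 210.3 and 226.7 to 162.0 and 157.2 FPKM (−0.45 ± 0.06, adjusted p = 0.00619), and Nop56, a nucleolar protein gene, from 53.5 and 55.3 to 37.7 and 37.4 FPKM (−0.53 ± 0.05, adjusted p = 0.00191). Sat1, which acetylates polyamines for export, rose from 110.6 and 122.9 to 162.1 and 172.9 FPKM. Odc1 and Sat1 lost their call without control 24 h replicate 2. The 7 falls became 4 without any 1 MPC EV library, 2 without control 24 h replicate 1, 1 without control 24 h replicate 2 and 14 without control 12 h replicate 1. Of 22 glucocorticoid and serum-responsive genes, 5 fell and 3 rose. Acta2, the smooth muscle actin that early myotubes also express, went from 1505 and 1809 to 760.4 and 826.7 FPKM (−1.06 ± 0.11, adjusted p = 0.00238). The 5 falls became 2 without control 24 h replicate 1 and 1 without control 24 h replicate 2.

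Markers of other cells that such a culture could hold were read beside these changes. Of 8 tested progenitor markers, 5 fell and 2 rose, and their summed level was 442 and 477 FPKM at 12 h and 319 and 321 FPKM at 24 h. Vcam1 fell from 24.4 and 23.9 to 14.8 and 13.6 FPKM and Cdh15, M-cadherin, from 90.3 and 98.2 to 55.2 and 53.7 FPKM. The 2 that rose were Myf5, described above, and Notch3 (2.59 and 2.99 to 4.3 and 4.08 FPKM). Pax7 did not pass, at 4.29 and 5.08 and then 5.82 and 5.36 FPKM. Most of the summed level was Itga7, at 245 and 270 and then 179 and 190 FPKM. Cdh15 lost its call after the GC and length correction (adjusted p = 0.0557), where 3 progenitor markers fell. Pericyte and smooth muscle markers, of which 4 of 6 fell and 1 rose, summed to 2820 and 3280 and then 1760 and 1840 FPKM, most of it Acta2 and Des, which myotubes also express. Fibroblast and fibro-adipogenic markers summed to 120 and 134 and then 121 and 132 FPKM, with 2 of 5 higher. All 10 endothelial markers were under 0.5 FPKM in each control library. Of 10 Schwann and neural markers, 7 were under 0.5 FPKM in all 4 libraries, and both tested ones fell, Tubb3 from 49.7 and 55.7 to 22.5 and 20.7 FPKM and Ngfr from 4.99 and 5.54 to 1.12 and 0.676 FPKM. Of 8 adipocyte markers, Retn and Cidec were listed at 0 in all 4 libraries, and the sum was 2.70 to 5.02 FPKM. The pericyte falls became 2 without control 24 h replicate 1 and 1 without control 24 h replicate 2, and the progenitor falls 3 without either. The part of progenitors and other cells in the changes of muscle and mitosis genes was not tested.

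The time change in myotubes given MPC EVs was set beside that of the controls, with which it shares no library. There 1409 genes rose (12.9%) and 577 fell (5.27%), with a median change of 0.10. Of the 829 genes that rose in control, 802 (96.7%) had a positive change with MPC EVs, and of the 1130 that fell, 910 (80.5%) had a negative one, where 60.6% of all tested genes moved in the same direction. The genes called in both in the same direction numbered 996, which is 554 rises and 442 falls, of 1959 calls in control and 1986 with MPC EVs. The difference between the time changes was tested as an interaction over the 8 libraries. With limma, 0 genes passed an adjusted p of 0.05, the smallest adjusted p being 0.0753, and 2019 genes (18.4%) had an unadjusted p under 0.05. The number at an adjusted p under 0.05 was 3651 without control 12 h replicate 1, 3 without control 12 h replicate 2, 1 without MPC EV 24 h replicate 2 and 0 without any of the other 5 libraries.

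The 5 genes with the smallest p of the difference all fell in control. Gal changed by −3.24 in control and −0.41 with MPC EVs (adjusted p = 0.0753). Odc1 changed by −0.45 and 0.56, from 182.2 and 194.6 to 281.8 and 274.2 FPKM with MPC EVs (adjusted p = 0.0753). Nfkbie changed by −2.11 and −0.57, and its MPC EV levels were 3.41 and 3.94 FPKM at 12 h and 2.10 and 2.55 FPKM at 24 h (adjusted p = 0.0949). Smco4, a small membrane protein gene, changed by −0.47 and 0.60 and Mcm6 by −0.39 and 0.47, with an adjusted p of 0.0949 for each. None of these differences passed the correction, so the opposite medians of the replication list and the unequal ones of the NF-kB and chemokine lists in the 2 treatments are values side by side and not a tested difference.

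**Figure D4:**
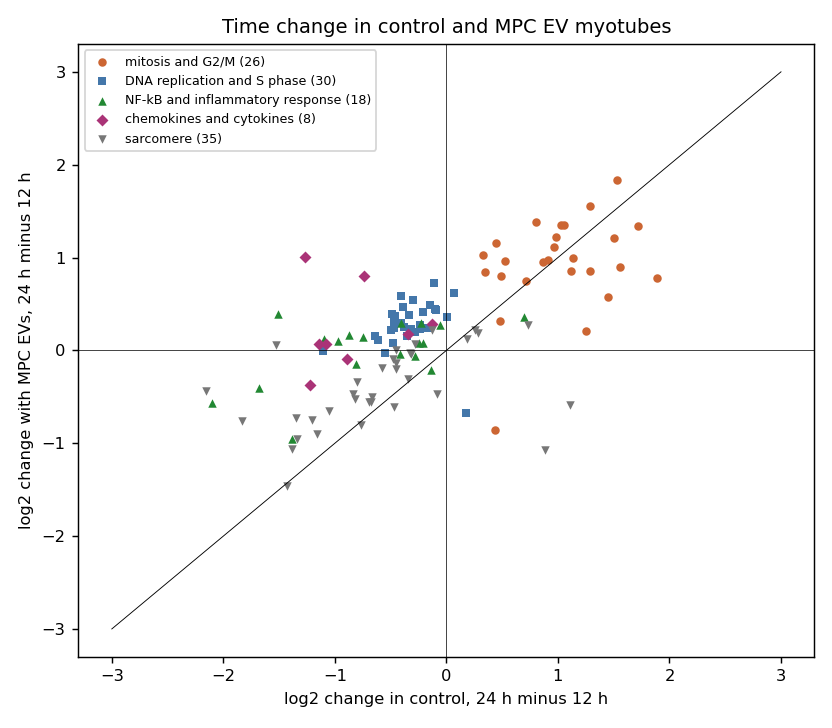
Log2 change from 12 h to 24 h in control myotubes (x axis) and in myotubes given MPC EVs (y axis), both on log2 FPKM + 0.5, for the tested members of 5 lists; the diagonal marks equal change. Mitosis genes have medians of 1.01 and 0.97 on the 2 axes, replication genes −0.35 and 0.29, NF-kB genes −0.58 and 0.09, chemokines −0.99 and 0.13 and sarcomere genes −0.58 and −0.46.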

How the data were processed

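RNA of 8 myotube libraries was sequenced in pairs of reads on an Illumina NovaSeq instrument from libraries that do not keep strand, per the labels' protocols. The authors deposited 1 table of FPKM values. HISAT2, DESeq2 (version given as 2) and mm10 are named in the submitters' processing notes with no role, and which counter, annotation release and scaling were used is not given in the sources used here. Each library's total enters its FPKM, so abundant transcripts shift all others. Gene IDs were matched to GENCODE vM21 (GRCm38), which left 34 of 10953 tested genes without a symbol. Low values rise in steps of 1 fragment, and these gave the depth: 49.9% to 54.2% of low genes gave whole fragments within 0.02, against 1.9% to 2.6% at other depths. Counts were not recovered for most genes, so no count test was run.

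Tested genes averaged 1 FPKM or more in the control libraries. Their log2(FPKM + 0.5) values were fitted in R 4.3.3 by limma 3.58.1 (lmFit, eBayes, trend on), with two-sided p-values adjusted by Benjamini-Hochberg over all of them. The fit held 8 libraries in 4 groups (4 residual degrees of freedom), since 2 against 2 leaves few. Without a library, the partner left alone was assumed to vary like the other groups. For the GC and length correction, the deviations of a library from the 8-library mean were regressed on both properties and their product, which 99.7% of tested genes had, and the slopes were removed. In simulated data for this comparison with 10953 genes, 31.3%, 80.6% and 89.4% of genes changed by a log2 of 0.5, 1 and 2 were recovered, with 6 false calls. The simulated noise was independent between genes and libraries and left out the GC and length trend of control 12 h replicate 2. The number of false calls in the real libraries is therefore not given by it.

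The comparison, the 38 gene lists and the tests were chosen with earlier results of these data known, so no list count is independent support. Named genes are the 12 largest rises and falls that held, with groups apart, at least 2 FPKM and an established symbol, ranked by the smaller change of both fits. Added were up to 4 called genes per list with the smallest adjusted p, the 5 smallest p of the difference, and all clock genes and myotube markers, 155 in all. Not all are described, and some are not reported here. Python 3.11.15, numpy 2.4.6, pandas 2.3.3 and matplotlib 3.10.9 were used. Alternatives were other pseudocounts, filters and scalings, no trend, the GC and length correction, the replicate number as a block, the control libraries alone and each library left out.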

Additional observations from a re-analysis of the deposited data

How the results depend on the processing

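The counts of 829 rises and 1130 falls, or one of the pair, moved by over 1.5 times in 8 of 20 settings: the control libraries alone, each of the 4 control libraries left out, each MPC EV 24 h library left out (520 and 519 rises), and the block with the GC and length correction. With the 4 control libraries alone they were 159 and 329. Leaving out 1 library gave 185 to 2483 rises and 341 to 2016 falls. The replicate numbers do not pair the libraries: deviations of same-numbered libraries correlated at −0.612 to 0.239 between groups. With the replicate number as a block, 617 rises and 871 falls were called, and 744 and 649 with the block and the GC and length correction. The 0 genes past the threshold for the difference became 0 to 3651 when 1 library was left out, 3651 without control 12 h replicate 1. Of the 155 named genes, 71 were called under every alternative run, and 62 called ones lost the call with the 4 control libraries alone. Over the named genes and alternatives, 2765 results kept their direction and side of the threshold, 277 fell below it, 31 rose past it and 6 changed direction. Csnk1e (0.054) and Csnk1d (0.003) did so under the GC and length correction with and without the block, and Nfil3 (−0.10) without control 12 h replicate 1 (up to 0.18 without another library), none of which is called. Acta1, which is called as lower, stood at 0.0 with quantile normalization, which gives a gene of unchanged rank no change. The cause of these changes was not tested. The difference was not fitted in the control libraries alone. With 2 libraries per group and 16.3 to 20.2 M fragments per library, changes near a log2 of 0.5 were mostly missed in the simulation.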
